A study of Mus musculus with 21 samples.

Results

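Loss of Gpr124 was examined in endothelial cells of the hemisphere opposite an experimental stroke, in 8 of the 21 libraries of the series. Members were the 4 cKO_NS libraries and the 4 Control_NS libraries, named by the genotype and hemisphere that the labels give. Mice of cKO_NS were Gpr124 flox/- with ROSA-CreER+, so that 1 allele was null in every cell and the other could be deleted by the drug-inducible recombinase. Mice of Control_NS were Gpr124 flox/+ with the same ROSA-CreER+ transgene, so a floxed allele and the recombinase were common to both groups. ROSA-CreER is not restricted to endothelium, and the dosing that induces it is not given in the sources used here. All mice were C57BL/6 adults aged 12 to 20 weeks whose middle cerebral artery had been closed for 1 h and reopened for 1 d, and cells of the unoccluded hemisphere were taken, so neither group represents a brain without stroke. Live cells that were CD31+, CD45- and PDGFRb- were sorted by flow cytometry, and polyadenylated RNA was amplified with a 3' digital-expression kit. The same genotypes in the stroke hemisphere (cKO_ST and Control_ST, n = 4 each) and mice without stroke whose endothelial beta-catenin lacked its degradation signal (Bcat_exon3, Ctnnb1 lox(ex3)/+ with Cdh5-CreER+, n = 3, against Bcat_control, Ctnnb1 +/+ with Cdh5-CreER+, n = 2) served for comparison.

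Gpr124 is an adhesion G protein-coupled receptor of brain endothelium and pericytes. With the membrane-anchored protein Reck it presents the ligands Wnt7a and Wnt7b to Frizzled receptors and the co-receptors Lrp5 and Lrp6, which stabilises beta-catenin and switches on target genes through Tcf and Lef factors. In brain vessels this signal is known for driving vessel ingrowth in the embryo and for the barrier program of junction proteins and nutrient transporters that keeps blood and brain apart.

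Among the 8 libraries 1 went against its label. All 8 mice are labelled female, yet cKO_NS 4 had a summed RPKM of 189 over the Y-linked genes (Uty, Kdm5d, Eif2s3y, Ddx3y) and 1.48 RPKM of Xist, the transcript that silences an X chromosome in female cells. The other 7 libraries had Y-linked sums of 0.228 to 0.973 and Xist of 103 to 176 RPKM. This library also stood apart on the first principal component, which held 24.1% of the variance, at 60.3 against -31.0 to 12.6 in the others, and its summed blood leukocyte markers were the highest at 90.2 RPKM. It was not the only one, since cKO_NS 1 stood apart on the second component. That component held 20.7% of the variance, with cKO_NS 1 at -54.1 against -18.2 to 28.9 in the others. In the stroke hemisphere 2 libraries are labelled male. Of them cKO_ST 4, of the same number, had 249 RPKM summed over the Y-linked genes and 0.776 RPKM of Xist, while cKO_ST 3 had 0.423 RPKM and 89.7 RPKM and so also went against its label. Whether the sex labels or the libraries themselves are exchanged among the knockouts cannot be told from the sex-linked genes. An exchange between hemispheres would change which cells the cKO_NS values describe, and it was not tested. Ch25h was at 29.2 to 38.6 RPKM in Control_NS and 187 to 313 RPKM in Control_ST. It was at 49.2 RPKM in cKO_NS 4 and 256 RPKM in cKO_ST 3. Col4a1 was at 21.6 to 39.9 RPKM in Control_NS and 102 to 123 RPKM in Control_ST. It was at 49.8 RPKM in cKO_NS 4 and 110 RPKM in cKO_ST 3. These genes were picked after their values were seen. Several results that turn on cKO_NS 4 are given with and without it. Of the 115 genes chosen for naming 22 changed sign without it, and not all of these are given both ways. Depth, recovered from the RPKM values, was 7.21, 10.1, 11.5 and 7.42 M reads in cKO_NS and 4.71, 6.92, 7.43 and 14.5 M reads in Control_NS.

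The cells carried the endothelial markers of their sort in all 8 libraries. Cdh5, the junction cadherin of endothelium, was at 246, 303, 338 and 275 RPKM in cKO_NS and 250.3, 269, 214 and 238 RPKM in Control_NS. Pdgfrb, the pericyte receptor used to exclude cells, reached at most 0.716 RPKM, and the T-cell gene Cd3e and the fibroblast gene Col1a1 were listed at 0 in all 8. RNA of other cells was present at levels that varied between libraries. Summed oligodendrocyte markers ranged from 392 to 1568 RPKM in cKO_NS and from 529.8 to 2335 RPKM in Control_NS, and the median log2 fold change over the 11 of them tested was -0.69. Summed red cell and platelet markers ranged from 6460 to 43304 RPKM in cKO_NS, with the highest value in cKO_NS 3, and from 9160 to 16022 RPKM in Control_NS. Summed mural cell markers were 23.5 to 34.1 RPKM in cKO_NS and 51.4 to 71.2 RPKM in Control_NS, a gap that came mostly from Rgs5, a regulator of G protein signalling that is high in pericytes. In such bulk libraries fewer cells of a type and less RNA per cell cannot be told apart.

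Gpr124 itself was low and did not separate the groups. It read 2.03, 0.994, 3.15 and 4.85 RPKM in cKO_NS and 3.01, 7.58, 4.74 and 2.65 RPKM in Control_NS. The groups overlapped, since cKO_NS 4 exceeded every control library except number 2 and Control_NS 4 lay below cKO_NS 3. The log2 fold change of RPKM + 1 was -0.57 ± 0.41 (SE, n = 4 each), with an adjusted p of 0.586 by limma with Benjamini-Hochberg adjustment over 9843 genes. Without cKO_NS 4 it was -0.82, with an adjusted p of 0.405 by limma, and with the GC trend removed it was -0.98. The values rested on about 80.8, 55.8, 202 and 199.5 estimated reads in cKO_NS and 78.5, 290.2, 195 and 213 in Control_NS. The gene lies at chr8:27085583-27123436 on the plus strand of GRCm38, where it is annotated as Adgra2. Which exons are floxed is not given in the sources used here, and a 3' tag outside the deleted part would not register the deletion. The level of Gpr124 therefore does not check the labels.

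Few genes passed adjustment over all genes. Of 9843 genes with a mean of at least 1 RPKM, Igfbp7 rose and Tfrc fell at an adjusted p under 0.05, which is 0.0102% of the genes tested in each direction. At an unadjusted p under 0.05 there were 951 higher and 334 lower genes. The 4 cKO_NS values all lay above the 4 Control_NS values for 652 genes (6.62%) and all below for 202 genes (2.05%). Without cKO_NS 4 the groups did not overlap for 1033 higher genes (10.5%) and 386 lower genes (3.92%), and limma called 10 higher (0.102%) and 1 lower (0.0102%). A fit over all 16 stroke libraries, which pools their spread, called 22 higher (0.224%) and 9 lower (0.0914%) for the same comparison, and 34 (0.345%) and 11 (0.112%) without cKO_NS 4. Beside Igfbp7 and Tfrc the 22 and 9 included Ctla2a, Map3k6, Polr2b, Mapk12, Ndufb7, Col4a1, Col4a2, Robo4 and Nos3 on the higher side and Slc16a1, Hbb-y, Cetn2 and Echdc1 on the lower. Limma's voom on the estimated reads called Igfbp7 alone as higher (0.0102%) and 7 as lower (0.0713%), namely Tfrc, Slc16a1, Slc7a1, Tiam1, Arhgap29, Qk and Tspan13. Log2 fold changes of the deposited RPKM were positive for 60.4% of all genes. The excess of higher over lower genes depended on the scaling. The median log2 fold change over all genes was 0.11 in the deposited RPKM and -0.01 after median-of-ratios scaling, which divides each library by its median ratio to a common profile, and the groups then did not overlap for 410 higher (4.17%) and 408 lower genes (4.15%). Nothing in the labels ties each library to an animal of its own, so the p-values reflect only how these samples spread, which may be technical.

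Fold changes also followed the base composition of transcripts. Across 9748 genes the log2 fold change correlated with the GC content of the longest annotated transcript with a Spearman's rho of 0.318, where genes are not independent replicates. The median log2 fold change was -0.05 in the tenth of genes with the lowest GC content and 0.40 in the tenth with the highest. Each library's deviation from the gene means correlated with GC content at 0.048, 0.095, 0.220 and 0.188 in cKO_NS and -0.138, -0.094, -0.180 and -0.233 in Control_NS, so the GC trend and the genotype cannot be told apart in these 8 libraries. In the stroke hemisphere the same correlation of the genotype effect was 0.0102. Values with the trend removed in each library are given beside the groups of genes below. With it removed, limma called 0 genes in either direction of 9748, and 1009 genes had an unadjusted p under 0.05.

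**Figure D1:**
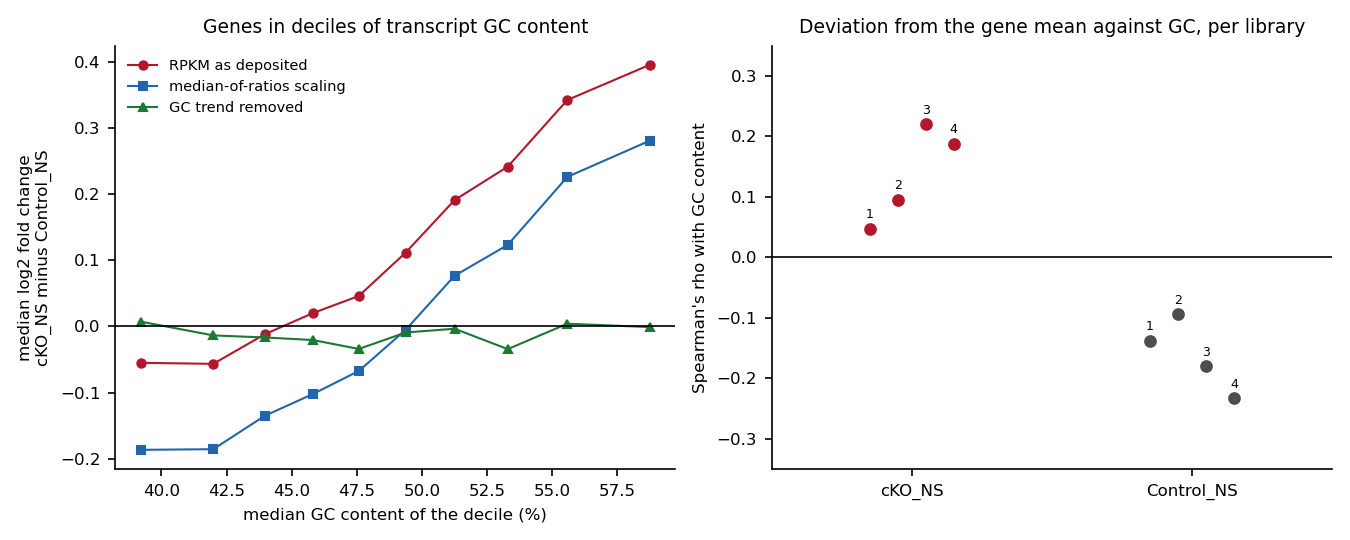
Left, the median log2 fold change (cKO_NS minus Control_NS) of genes in 10 bins of GC content (horizontal axis, percent) for the deposited RPKM, after median-of-ratios scaling and with the GC trend removed. Right, Spearman's rho between each library's deviation from the gene mean and GC content, with replicate numbers. The deposited values climb to 0.40 in the highest bin, and all 4 cKO_NS libraries lie above 0 while all 4 Control_NS libraries lie below it.

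Tfrc, the transferrin receptor through which brain endothelium takes up iron from blood, was the gene that fell. Its levels were 384, 387, 262 and 455 RPKM in cKO_NS, against 845, 1084, 844 and 1235 RPKM in Control_NS. Every cKO_NS library was lower than every Control_NS library, and the lowest control library was well above the highest cKO_NS library. The mean was 372 ± 80.2 RPKM in cKO_NS and 1002 ± 192 RPKM in Control_NS (SD, n = 4 each), a log2 fold change of -1.44 ± 0.19 (SE) with an adjusted p of 0.0481 by limma. Without cKO_NS 4 the log2 fold change was -1.54 with an adjusted p of 0.0261 by limma. After median-of-ratios scaling it was -1.58 and the call held. With the GC trend removed it was -1.37 and the call was lost. The call was also lost when any 1 of the other 7 libraries was left out, with log2 fold changes of -1.54 to -1.28 over the 8 such fits.

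Tfrc mRNA is known for stem-loops after its coding region, the iron-responsive elements, to which iron regulatory proteins bind when iron is scarce and so protect the mRNA from decay. Since Tfrc is the gene that fell, the elements found in its transcript are shown. The annotated transcript of 4890 bases (GENCODE, GRCm38, chr16:32608920-32632794, plus strand) was searched on its own strand for a C, 5 bases, the loop letters CAGTGN and 5 bases that pair with the first 5 (G with U pairs allowed). It held 4 matches, all after the stop codon that ends at base 2432, and the loop letters CAGTG are in capitals.
Tfrc, from transcript base 3321, chr16:32631225-32631241: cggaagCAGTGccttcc
Tfrc, from transcript base 3700, chr16:32631604-32631620: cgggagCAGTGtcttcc
Tfrc, from transcript base 3765, chr16:32631669-32631685: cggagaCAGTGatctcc
Tfrc, from transcript base 3812, chr16:32631716-32631732: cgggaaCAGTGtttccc
Among the longest coding transcripts of 21877 genes 271 (1.24%) held at least 1 match, and 4 (0.0183%) held more than 1. A match describes the letters only.

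Other iron genes did not pass the test. Slc40a1, which encodes the iron exporter ferroportin, was at 74.2, 55.6, 36.6 and 70.8 RPKM in cKO_NS and 115, 92.8, 121 and 89.1 RPKM in Control_NS, with no overlap (log2 fold change -0.84 ± 0.23, adjusted p = 0.189 by limma). Ftl1, the ferritin light chain that stores iron, lay the other way, at 142, 122, 158 and 278 RPKM in cKO_NS and 115, 113, 118 and 96.7 RPKM in Control_NS (log2 fold change 0.59, adjusted p = 0.317 by limma), and its log2 fold change was 0.21 with the GC trend removed. Its partner Fth1, the ferritin heavy chain, had a log2 fold change of 0.06 ± 0.20, and the groups overlapped.

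Igfbp7, a secreted protein that binds insulin-like growth factors and sits in the vascular basement membrane, was the gene that rose. It was at 851, 855, 1112 and 732 RPKM in cKO_NS, against 396, 415, 366 and 441 RPKM in Control_NS. The control libraries lay close together, and every cKO_NS library was above them. The mean was 888 ± 160.2 RPKM in cKO_NS and 405 ± 31.6 RPKM in Control_NS (SD, n = 4 each), a log2 fold change of 1.12 ± 0.15 (SE) with an adjusted p of 0.0481 by limma. Without cKO_NS 4 it was 1.20 with an adjusted p of 0.0261 by limma. The transcript is rich in G and C (58.8%), and with the GC trend removed the log2 fold change was 0.72 and the call was lost. After median-of-ratios scaling it was 0.97 and the call was likewise lost, as it was when any 1 of the other 7 libraries was left out (log2 fold changes of 1.00 to 1.20 over the 8 such fits). The gene is at chr5:77349240-77408041 on the minus strand of GRCm38.

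Genes of the Wnt pathway lay mostly below their control levels, and none passed the test. Of 21 receptors and pathway components tested, of 27 listed, 16 had negative fold changes and the median log2 fold change was -0.24, against 0.11 over all genes. The groups did not overlap for 2 of the 21, both lower, against 2.05% of all genes. Ctnnb1, which encodes beta-catenin, was 1 of them, at 1629, 1997, 1502 and 1627 RPKM in cKO_NS and 2115, 2482, 2283 and 2196 RPKM in Control_NS (log2 fold change -0.43 ± 0.13, adjusted p = 0.198 by limma). The other was Csnk1a1, the casein kinase that primes beta-catenin for degradation, at 460.2, 430.3, 324 and 445 RPKM in cKO_NS and 523, 508, 555 and 599.6 RPKM in Control_NS (log2 fold change -0.41, adjusted p = 0.276). Reck, the partner of Gpr124, was at 92.2, 70.9, 49.0 and 44.0 RPKM in cKO_NS and 63.3, 62.5, 96.9 and 98.5 RPKM in Control_NS. The groups overlapped (log2 fold change -0.35 ± 0.26, adjusted p = 0.606, and -0.19 without cKO_NS 4). The receptor Fzd4 had a log2 fold change of -0.07, and the co-receptors Lrp5 and Lrp6 had 0.21 and -0.14, each smaller than its SE. The median of the list was -0.36 after median-of-ratios scaling and -0.41 with the GC trend removed.

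Among the Wnt target genes 13 of 19 listed were tested, and 11 of the 13 had negative fold changes, with a median log2 fold change of -0.23. Tnfrsf19, a receptor of the tumour necrosis factor family, was at 6.12, 14.8, 10.4 and 9.78 RPKM in cKO_NS and 18.2, 17.5, 18.8 and 18.4 RPKM in Control_NS. Its groups did not overlap and the control values were nearly level, but the log2 fold change of -0.83 ± 0.26 did not pass (adjusted p = 0.229 by limma). Axin2, the feedback inhibitor most often read as a gauge of beta-catenin signalling, was at 2.31, 2.82, 2.68 and 2.84 RPKM in cKO_NS and 6.21, 3.96, 2.84 and 5.33 RPKM in Control_NS. The cKO_NS libraries were tightly grouped at or below the lowest control library (log2 fold change -0.57 ± 0.30, adjusted p = 0.445, and -0.88 with the GC trend removed), on 71.0 to 132 estimated reads in cKO_NS.

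Other targets had similar levels in both groups. Lef1, a factor that carries beta-catenin on DNA and is itself a target, was at 1269.7, 1298, 1353 and 1077 RPKM in cKO_NS and 1038, 1219, 1535 and 1255 RPKM in Control_NS, with a log2 fold change of -0.01 ± 0.14. Apcdd1, a secreted-pathway inhibitor at the cell surface, averaged 1.69 ± 0.972 RPKM in cKO_NS and 1.65 ± 0.624 RPKM in Control_NS (SD, n = 4 each). Nkd1, a feedback inhibitor, averaged 2.82 ± 0.645 RPKM in cKO_NS and 4.41 ± 1.49 RPKM in Control_NS, and the groups overlapped. The groups did not overlap for 2 of the 13 targets, both lower, against 2.05% of all genes. The count was 5 of 13 after median-of-ratios scaling (4.15% of all genes) and 4 of 13 without cKO_NS 4 (3.92%). The list median was -0.37 after that scaling, -0.26 without cKO_NS 4 and -0.47 with the GC trend removed.

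Promoters of a Wnt target whose groups did not overlap and of Axin2 are shown because Tcf and Lef factors bind the letters CTTTGA. The windows are the 250 bases before the annotated starts (RefSeq, GRCm38.p6), written on the strand of the gene, and matches on either strand (CTTTGA or TCAAAG) are in capitals.
Axin2, plus strand, chr11:108920099-108920348: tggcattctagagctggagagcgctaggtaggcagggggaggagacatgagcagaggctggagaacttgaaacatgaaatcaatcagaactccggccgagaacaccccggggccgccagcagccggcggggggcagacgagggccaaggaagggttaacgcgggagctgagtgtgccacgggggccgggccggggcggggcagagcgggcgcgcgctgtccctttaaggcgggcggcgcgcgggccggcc
Tnfrsf19, minus strand, second start, chr14:61037988-61038237: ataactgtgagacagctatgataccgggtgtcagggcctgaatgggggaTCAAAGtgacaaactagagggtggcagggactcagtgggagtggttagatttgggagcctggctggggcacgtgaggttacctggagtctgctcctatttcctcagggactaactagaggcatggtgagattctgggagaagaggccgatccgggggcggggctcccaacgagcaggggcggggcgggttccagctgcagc
The Axin2 window had 0 matches. The Tnfrsf19 window shown had 1, and the window of its other annotated start, chr14:61046856-61047105, had 0. Of 32851 windows of this length 4544 (13.8%) held a match. A match, or none, describes these letters in this window only.

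**Figure D2:**
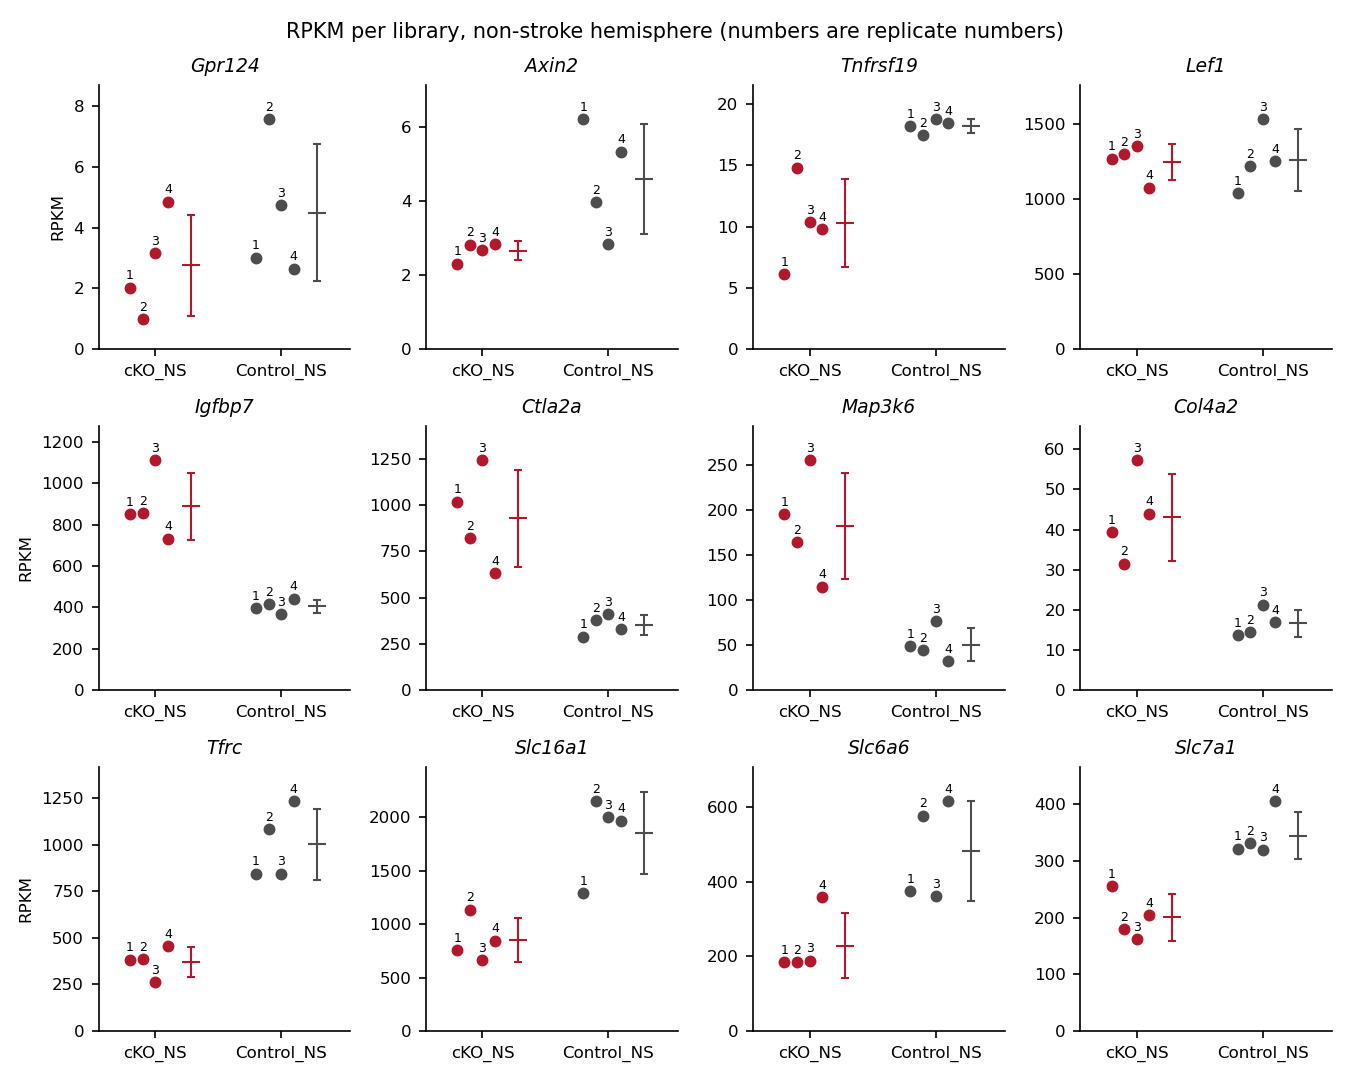
RPKM of 12 genes in each library, with cKO_NS at the left and Control_NS at the right of each panel, replicate numbers beside the points, and the mean ± SD as a bar. Igfbp7 and Tfrc, the genes that passed the test, separate with a wide gap, while Gpr124, Axin2 and Lef1 overlap or touch.

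Among the 46 gene lists, transporters of the blood-brain barrier had the most members that were lower without overlap. Of 30 tested, of 32 listed, 8 were lower without overlap, against 2.05% of all genes, and 2 were higher without overlap, against 6.62%. Of these 10 Tfrc alone passed the test. After median-of-ratios scaling the counts were 9 lower and 1 higher, against 4.15% and 4.17% of all genes. Without cKO_NS 4 they were 9 lower and 7 higher, against 3.92% and 10.5%. Over the whole list 13 of 30 were positive, against 60.4% of all genes. The median log2 fold change was -0.10, -0.24 after that scaling and -0.20 with the GC trend removed.

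Slc16a1 carries lactate and ketone bodies across the barrier. It was at 754, 1137, 663 and 847 RPKM in cKO_NS, against 1291, 2153, 2003 and 1969.9 RPKM in Control_NS. No library of one group reached the other (log2 fold change -1.13 ± 0.20, adjusted p = 0.105 by limma). The same gene passed when limma's voom was run on the estimated reads (log2 fold change -1.30, adjusted p = 0.0268). Slc7a1, the transporter of cationic amino acids such as arginine and lysine, was at 256, 179.8, 162 and 204 RPKM in cKO_NS and 322, 332, 319.8 and 406 RPKM in Control_NS (log2 fold change -0.79 ± 0.17, adjusted p = 0.113 by limma and 0.0381 with voom). Slc6a6, the taurine transporter, was at 184, 185, 189 and 359 RPKM in cKO_NS and 375, 577, 362 and 616 RPKM in Control_NS. Here cKO_NS 4 nearly reached the lowest control library, and the log2 fold change was -1.09 ± 0.25 with it (adjusted p = 0.134) and -1.33 without it (adjusted p = 0.0519 by limma).

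Slc39a10, a zinc importer, was at 129.8, 186, 119 and 200.4 RPKM in cKO_NS and 237, 288, 298 and 284 RPKM in Control_NS (log2 fold change -0.83 ± 0.19, adjusted p = 0.126 by limma). The thyroid hormone transporter Slco1c1 was lower by a smaller step, at 267 ± 22.3 RPKM in cKO_NS and 342 ± 36.4 RPKM in Control_NS (SD, n = 4 each), with a log2 fold change of -0.35 ± 0.14 (adjusted p = 0.314 by limma). With the GC trend removed the log2 fold changes were -1.10 for Slc16a1, -0.99 for Slc7a1, -1.28 for Slc6a6 and -0.84 for Slc39a10, so these were as large or larger, apart from a small step down in Slc16a1.

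Other transporters lay above control or level with it. Slc2a1, the glucose transporter Glut1, was at 7472, 6466, 6961 and 3242 RPKM in cKO_NS and 3990.3, 4061, 4189 and 4058 RPKM in Control_NS. Its call depended on cKO_NS 4, which was the lowest of the 8 while the other 3 were the highest. The log2 fold change was 0.50 ± 0.22 with that library (adjusted p = 0.380 by limma) and 0.77 without it (adjusted p = 0.0261). With the GC trend removed and all 8 libraries it was 0.20. Slc3a2, the heavy chain of the large neutral amino acid exchanger, was at 79.9, 80.2, 77.5 and 81.5 RPKM in cKO_NS and 56.3, 55.1, 61.7 and 50.6 RPKM in Control_NS (log2 fold change 0.51 ± 0.15, adjusted p = 0.204, and 0.23 with the GC trend removed). The drug efflux pump Abcc4 averaged 79.1 ± 9.24 RPKM in cKO_NS and 57.5 ± 9.21 RPKM in Control_NS, also without overlap (log2 fold change 0.46, adjusted p = 0.306). The efflux pump Abcb1a, P-glycoprotein, averaged 180.2 ± 40.0 RPKM in cKO_NS and 195 ± 20.1 RPKM in Control_NS. Its value in cKO_NS 4 was 121 RPKM, set apart from the rest of that group. Mfsd2a, the carrier of the omega-3 fatty acid DHA, averaged 41.2 ± 3.24 RPKM in cKO_NS and 33.5 ± 8.57 RPKM in Control_NS. Both overlapped (adjusted p of 0.792 and 0.546).

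Tight junction genes did not lie below control as a group. Of 13 tested, 9 were positive, near the 60.4% of all genes. The median log2 fold change was 0.41, and 0.14 with the GC trend removed. Without overlap 3 were higher and 0 lower, against 6.62% and 2.05% of all genes. After median-of-ratios scaling 2 were higher and 1 lower, against 4.17% and 4.15%. Cldn5, the claudin that seals brain endothelium, was at 149.5, 158, 162 and 179.9 RPKM in cKO_NS and 92.8, 127, 106 and 124 RPKM in Control_NS. It was higher in every cKO_NS library (log2 fold change 0.53 ± 0.16, adjusted p = 0.200 by limma), its transcript is 60.5% G and C, and the log2 fold change with the trend removed was 0.12. Marveld2, tricellulin, was at 15.1, 9.25, 7.50 and 22.4 RPKM in cKO_NS and 5.44, 4.96, 5.36 and 4.27 RPKM in Control_NS, and its log2 fold change of 1.17 ± 0.33 was 1.06 with the trend removed (adjusted p = 0.192 without removal). Ocln, occludin, and Tjp1, the scaffold ZO-1, had log2 fold changes of -0.19 ± 0.14 and -0.25 ± 0.14 with overlapping groups.

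Of 10 adherens junction genes 2 were higher and 2 lower without overlap, against 6.62% and 2.05% of all genes. The lower ones were Ctnnd1, the catenin p120 that holds cadherins at the membrane, at 43.9 ± 4.47 RPKM in cKO_NS and 68.2 ± 8.70 RPKM in Control_NS, and Vcl, vinculin, at 81.6 ± 7.92 RPKM in cKO_NS and 113 ± 13.0 RPKM in Control_NS (SD, n = 4 each; adjusted p of 0.189 and 0.255 by limma). Among 14 genes of vesicles and permeability 1 was higher without overlap, near the 6.62% of all genes, and 1 lower, against 2.05%. The lower one was the caveolar protein Cav2, at 406, 516, 415 and 406 RPKM in cKO_NS and 570.4, 582, 587 and 532 RPKM in Control_NS (adjusted p = 0.250 by limma). Plvap, the diaphragm protein of leaky vessels, was low in both groups, at 0.618, 3.07, 1.33 and 0.866 RPKM in cKO_NS and 2.42, 5.36, 9.58 and 1.40 RPKM in Control_NS. Its groups overlapped, and its log2 fold change was -1.07 ± 0.48 (adjusted p = 0.381).

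Basement membrane genes included Igfbp7 and 3 others that were higher in every cKO_NS library. Of 14 tested 4 were higher without overlap, against 6.62% of all genes, and 0 lower. The count was 3 higher after median-of-ratios scaling, against 4.17%. The median log2 fold change was 0.22 (-0.04 with the GC trend removed). Col4a2, a chain of type IV collagen, was at 39.3, 31.5, 57.3 and 43.9 RPKM in cKO_NS, against 13.7, 14.4, 21.3 and 17.0 RPKM in Control_NS. The gap was wider than the spread within either group, yet the log2 fold change of 1.31 ± 0.23 had an adjusted p of 0.105 by limma, and it was 0.90 with the GC trend removed. Its partner Col4a1 was at 56.5, 44.6, 62.3 and 49.8 RPKM in cKO_NS and 22.3, 26.6, 39.9 and 21.6 RPKM in Control_NS (log2 fold change 0.96 ± 0.23, adjusted p = 0.142). With the GC trend removed its log2 fold change was 0.58, and its groups overlapped after median-of-ratios scaling. Lama5, a laminin chain of endothelial basement membrane, averaged 14.1 ± 2.04 RPKM in cKO_NS and 7.41 ± 1.67 RPKM in Control_NS, with a log2 fold change of 0.85 that was 0.45 with the GC trend removed (adjusted p = 0.192 without removal). GC content is 60.6% in the transcript of Col4a2, 57.7% in that of Col4a1 and 59.9% in that of Lama5.

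Of 20 genes that mark endothelial identity 8 were higher without overlap, against 6.62% of all genes, and 0 were lower. The counts were 5 higher and 1 lower after median-of-ratios scaling, against 4.17% and 4.15%. The median log2 fold change was 0.45, 0.30 after that scaling and 0.16 with the GC trend removed. Of the 20, 15 had positive log2 fold changes, against 60.4% of all genes, and the lowest was -0.58. Kdr lay the other way, with overlap, at 5.65, 6.36, 5.32 and 3.54 RPKM in cKO_NS and 7.06, 10.2, 5.44 and 6.10 RPKM in Control_NS. Ctla2a, a cysteine protease inhibitor abundant in brain endothelium, was at 1019, 820.1, 1243 and 633 RPKM in cKO_NS and 289, 378, 411 and 329.6 RPKM in Control_NS. All cKO_NS libraries were higher (log2 fold change 1.37 ± 0.20, adjusted p = 0.0943 by limma), and without cKO_NS 4 it passed (1.54, adjusted p = 0.0261). Its transcript is low in G and C (45.4%), and with the trend removed the log2 fold change was 1.34. Ctla2b, a near copy whose reads may be shared with it, was at 161, 179.6, 202 and 92.2 RPKM in cKO_NS and 71.5, 84.6, 84.6 and 71.7 RPKM in Control_NS, so both values are uncertain.

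Robo4, a receptor that steadies vessel walls, was at 179, 146, 179 and 132 RPKM in cKO_NS and 53.0, 79.5, 93.2 and 59.9 RPKM in Control_NS (log2 fold change 1.17 ± 0.20, adjusted p = 0.105 by limma, and 0.85 with the GC trend removed). Egfl7, a secreted protein of endothelium, averaged 358 ± 51.3 RPKM in cKO_NS and 196 ± 44.8 RPKM in Control_NS (log2 fold change 0.89, adjusted p = 0.113, and 0.52 with the GC trend removed). Ly6a and Ly6c1, surface proteins of brain endothelium with near copies in their gene family, averaged 3660.3 ± 744 and 1345 ± 242 RPKM in cKO_NS and 2387 ± 144 and 954 ± 110.2 RPKM in Control_NS. Pecam1, the CD31 antigen of the sort, was at 177, 176, 181 and 248 RPKM in cKO_NS and 156, 148, 158 and 142 RPKM in Control_NS (adjusted p = 0.367). The log2 fold change of Pecam1 was 0.35 with cKO_NS 4, 0.23 without it and 0.20 with the GC trend removed.

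Genes of angiogenesis and vascular tone showed differences in both directions, and none passed. Angpt2, the ligand that loosens Tie2 signalling, was at 10.3, 11.3, 12.5 and 17.6 RPKM in cKO_NS and 2.02, 5.26, 5.09 and 7.10 RPKM in Control_NS (log2 fold change 1.31 ± 0.33, adjusted p = 0.167 by limma). Nrp1, a co-receptor for vascular growth factors and semaphorins, was at 66.4, 112, 72.6 and 92.3 RPKM in cKO_NS and 161, 157, 126 and 147 RPKM in Control_NS (-0.80 ± 0.19, adjusted p = 0.142). Both pairs of groups were free of overlap. Nos3, the endothelial nitric oxide synthase, was at 23.2, 23.8, 38.2 and 28.4 RPKM in cKO_NS and 6.50, 13.2, 13.8 and 7.997 RPKM in Control_NS (1.40 ± 0.28, adjusted p = 0.108). Calcrl, the receptor subunit for adrenomedullin and CGRP, was at 101, 196, 139 and 201 RPKM in cKO_NS and 275, 261, 254 and 261 RPKM in Control_NS (-0.77 ± 0.21, adjusted p = 0.182). With the GC trend removed these log2 fold changes were 1.24 for Angpt2, -0.76 for Nrp1, 1.02 for Nos3 and -0.71 for Calcrl. In the whole lists, 3 of 16 angiogenesis genes were higher and 1 lower without overlap, and 1 of 10 vascular tone genes lay in each direction, against 6.62% higher and 2.05% lower of all genes. Notch genes (1 of 13 higher, Notch4) and TGF-beta and BMP genes (4 of 21 higher, among them the receptors Tgfbr2, Acvrl1 and Eng) had 0 lower, and the count of 1 in 13 is near the 6.62% of all genes.

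Inflammatory genes were mostly at similar levels. Of 20 inflammation genes 3 were higher without overlap, of 7 leukocyte adhesion genes 1, and of 25 interferon and MHC class I genes 2 were higher and 1 lower, against 6.62% higher and 2.05% lower of all genes. Lcn2, lipocalin 2, an acute-phase protein that binds bacterial iron carriers, was at 73.2, 80.6, 266 and 83.9 RPKM in cKO_NS and 29.7, 27.2, 38.3 and 27.7 RPKM in Control_NS. The high value of cKO_NS 3 stood apart from the other 3, which were all still above control (log2 fold change 1.78 ± 0.36, adjusted p = 0.108 by limma). Icam1, an adhesion protein for leukocytes, was at 9.15, 6.15, 15.5 and 7.998 RPKM in cKO_NS and 1.81, 5.21, 2.83 and 3.17 RPKM in Control_NS (1.32 ± 0.35, adjusted p = 0.17), whereas Vcam1 overlapped (-0.21 ± 0.45). Socs3, the feedback inhibitor of cytokine signalling, was at 12.5, 12.8, 12.2 and 30.3 RPKM in cKO_NS and 7.44, 5.78, 7.09 and 2.95 RPKM in Control_NS (adjusted p = 0.175). Summed blood leukocyte markers were 10.5 to 90.2 RPKM in cKO_NS and 0 to 12.5 RPKM in Control_NS. Of the 16 markers 4 were tested, and all 4 were positive. They reached the filter of a mean of 1 RPKM mostly through cKO_NS, so their signs show nothing further. Ptprc, which encodes CD45, was at 8.92 RPKM in cKO_NS 1 and the neutrophil gene S100a8 at 60.0 RPKM in cKO_NS 4. The part of these cells in the values above was not tested.

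Further genes without overlap and with a low p carried other functions. Map3k6, a stress-activated kinase, was at 195, 164, 255 and 115 RPKM in cKO_NS and 48.4, 44.2, 76.1 and 32.3 RPKM in Control_NS (log2 fold change 1.85 ± 0.29, adjusted p = 0.0956 by limma, and 0.0261 without cKO_NS 4). Mapk12, the kinase p38 gamma, averaged 16.2 ± 2.52 RPKM in cKO_NS and 4.17 ± 1.89 RPKM in Control_NS, and Polr2b, the second-largest subunit of RNA polymerase II, averaged 70.8 ± 12.9 RPKM in cKO_NS and 32.5 ± 3.56 RPKM in Control_NS (SD, n = 4 each; adjusted p = 0.105 for both). On the lower side, Tspan13, a tetraspanin membrane protein, was at 758, 864, 706 and 767 RPKM in cKO_NS and 1209, 1311, 1072 and 1118 RPKM in Control_NS (-0.60 ± 0.12, adjusted p = 0.109). Rgs5 was at 22.0, 28.2, 16.6 and 19.8 RPKM in cKO_NS and 50.7, 49.5, 38.2 and 57.6 RPKM in Control_NS (-1.15 ± 0.22, adjusted p = 0.108). Of 14 mural markers listed 4 were tested, 3 of them negative with a median of -0.76, and the part of mural cells in the Rgs5 value was not tested. Pdgfrb and Kcnj8 were at or near 0 in both groups, and Vtn was at 2.13, 1.24, 0.148 and 2.61 RPKM in cKO_NS and 0.605, 3.38, 5.22 and 3.61 RPKM in Control_NS, with overlap. The embryonic globin Hbb-y was at 2.45, 6.61, 4.45 and 4.97 RPKM in cKO_NS and 23.5, 13.7, 16.2 and 15.6 RPKM in Control_NS (-1.73 ± 0.30, adjusted p = 0.105), and since globins are near copies its value is uncertain.

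Genes of protein synthesis and turnover lay above control in large numbers by small steps. Of 81 cytosolic ribosomal protein genes 76 were positive and 24 were higher without overlap, against 6.62% of all genes, with 0 lower and a median log2 fold change of 0.47. The counts were 17 of 81 after median-of-ratios scaling, against 4.17%, and 34 of 81 without cKO_NS 4, against 10.5%. The median was 0.32 after that scaling and 0.23 with the GC trend removed. Rpl41 was at 821, 993, 916 and 1256 RPKM in cKO_NS and 537, 660.1, 453 and 369 RPKM in Control_NS, and Rpl8 at 81.5, 92.3, 117 and 127 RPKM in cKO_NS and 52.4, 61.7, 49.3 and 55.2 RPKM in Control_NS. Neither passed (adjusted p = 0.108 for both by limma), and reads of ribosomal protein genes may be shared with their many pseudogenes. Proteasome subunits were higher without overlap for 10 of 34, against 6.62% of all genes, with 0 lower. The count was 4 of 34 after median-of-ratios scaling, against 4.17%, and the median log2 fold change was 0.25 as deposited and 0.11 after that scaling.

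Nuclear-encoded respiratory chain genes were higher without overlap for 9 of 78 and lower for 1, against 6.62% and 2.05% of all genes. After median-of-ratios scaling 5 of 78 were higher, against 4.17%. The median log2 fold change was 0.34, and 0.12 with the GC trend removed. Ndufb7, a subunit of complex I, was at 72.4, 59.5, 48.2 and 59.2 RPKM in cKO_NS and 27.6, 28.7, 25.8 and 19.4 RPKM in Control_NS (log2 fold change 1.20 ± 0.20, adjusted p = 0.105 by limma). Glycolysis and hypoxia genes were positive for 16 of 18, against 60.4% of all genes. Their median was 0.47, and 0.30 with the GC trend removed. Of the 18, 3 were higher without overlap, against 6.62% of all genes. After median-of-ratios scaling 1 was, near the 4.17% of all genes. Aldoa, an aldolase of glycolysis, was at 96.1, 123, 139 and 169 RPKM in cKO_NS and 82.6, 87.9, 55.7 and 88.9 RPKM in Control_NS (log2 fold change 0.73, adjusted p = 0.201, and 0.37 with the GC trend removed). Mitochondrial ribosomal proteins stayed near the level of all genes, with a median of 0.05 and 7 of 75 higher without overlap, near the 6.62% of all genes. Cholesterol synthesis had 0 of 19 without overlap in either direction, against 6.62% higher and 2.05% lower of all genes.

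**Figure D3:**
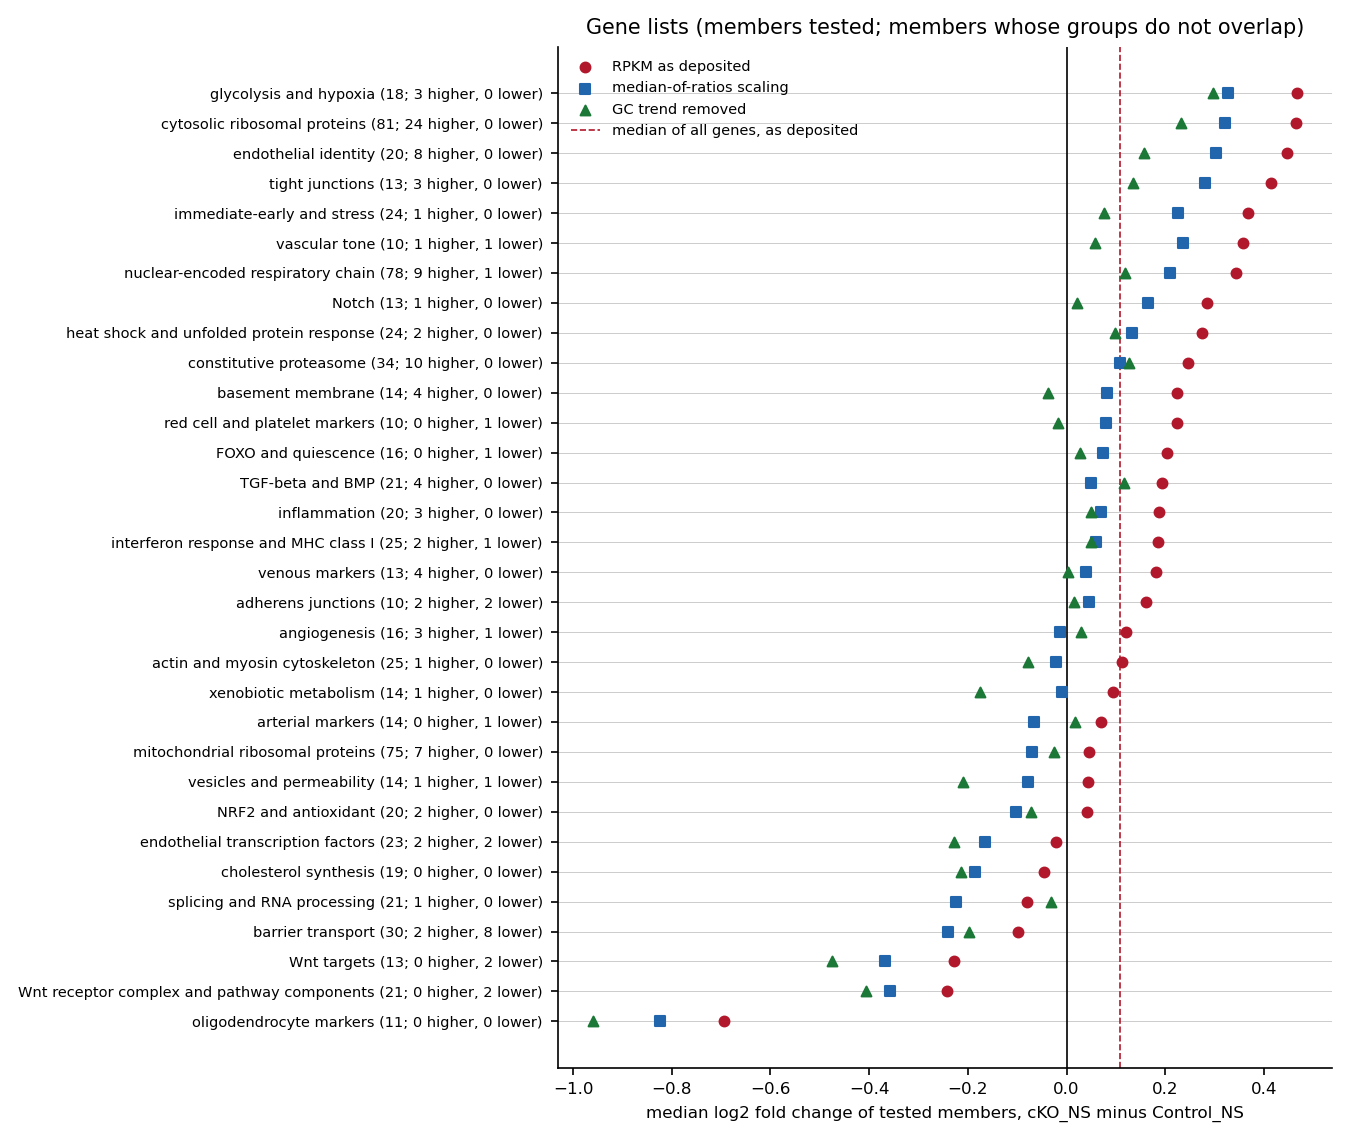
Median log2 fold change (cKO_NS minus Control_NS, horizontal axis) over the tested members of each gene list with at least 10 of them, for the deposited RPKM, after median-of-ratios scaling and with the GC trend removed. The dashed line is the median of all genes, 0.11, and labels give the members tested and how many were higher or lower without overlap. Ribosomal, glycolytic and endothelial identity genes lie to the right under each treatment of the data, and Wnt components, Wnt targets and oligodendrocyte markers to the left.

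The stroke hemisphere of the same genotypes gave libraries that share none with those above, although they may come from the same animals. There limma, in a fit of all 16 stroke libraries that treats them as independent, called 0 genes between cKO_ST and Control_ST of 9838. Of these genes 476 had an unadjusted p under 0.05. A fit of the same 16 libraries called 22 higher (0.224%) and 9 lower (0.0914%) of 9843 for cKO_NS against Control_NS. In the stroke hemisphere the groups did not overlap for 142 higher (1.44%) and 185 lower genes (1.88%). Genes lower without overlap in cKO_NS had a negative fold change in the stroke hemisphere for 156 of 198 (78.8%), against 54.0% of all genes. Genes higher without overlap had a positive one for 403 of 645 (62.5%), against 46.0% of all genes. Tfrc had a log2 fold change of -0.56 ± 0.22 there and Igfbp7 of 0.28 ± 0.15, and neither passed (adjusted p = 0.994 for both by limma). The difference of the genotype effect between hemispheres was called for 0 genes, with 691 at an unadjusted p under 0.05, and had an adjusted p of 0.681 for both Tfrc and Igfbp7.

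In the stroke hemisphere barrier transport genes were negative for 28 of 30, with a median log2 fold change of -0.66, and Wnt targets for 12 of 13, with a median of -0.51. All 8 transporters that were lower without overlap in cKO_NS were negative there, among them Slc39a10 (-0.89 ± 0.20), Slc16a1 (-0.77 ± 0.21) and Slco1c1 (-1.29 ± 0.25). Axin2 had -0.70 ± 0.26. Of the 24 ribosomal protein genes higher without overlap in cKO_NS 23 were positive there, but the list's median was 0.08, against 0.47 in the non-stroke hemisphere. Gpr124 had a log2 fold change of -1.28 ± 0.39 in the stroke hemisphere, which did not pass either.

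Stabilised beta-catenin gave fold changes of the other sign for part of these genes. Limma called 0 genes between Bcat_exon3 and Bcat_control of 11252, with 590 at an unadjusted p under 0.05, and these libraries were made from total RNA of male mice with another kit. Barrier transport genes were positive for 17 of 30, and 6 of the 8 transporters that were lower in cKO_NS were positive. Tfrc had a log2 fold change of 0.68 ± 0.29, Slc16a1 of 0.63 ± 0.28 and Slc7a1 of 0.51 ± 0.35. Wnt targets were positive for 9 of 13, with a median of 0.38, among them Nkd1 (2.33 ± 0.50), Apcdd1 (1.06 ± 0.27) and Axin2 (0.80 ± 0.26). Over all genes the opposite sign was no rule. Genes lower without overlap in cKO_NS were positive in Bcat_exon3 for 90 of 185 (48.6%), against 45.8% of all genes, and genes higher without overlap were negative for 366 of 635 (57.6%), against 54.2%.

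**Figure D4:**
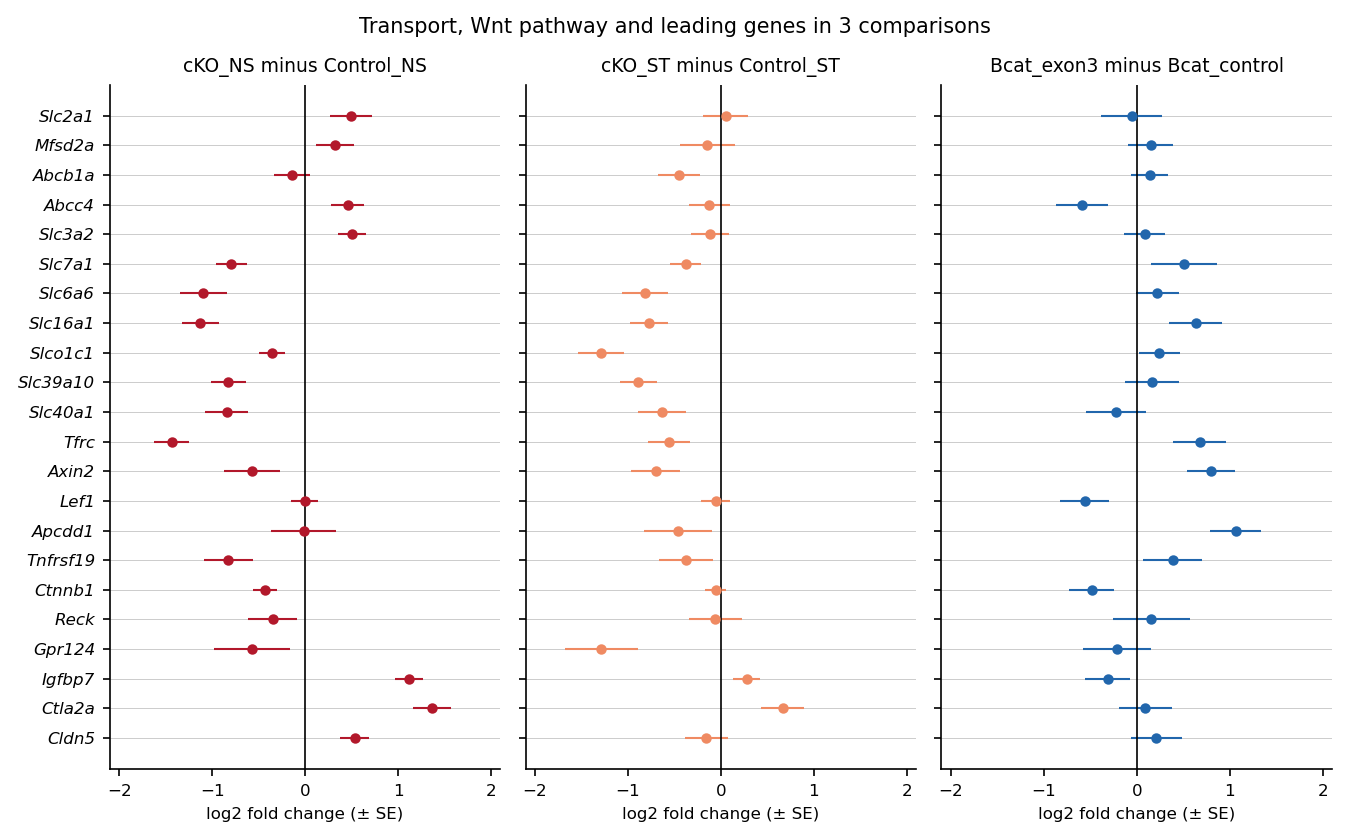
Log2 fold change ± SE (horizontal axis) of 22 genes in 3 comparisons, cKO_NS minus Control_NS, cKO_ST minus Control_ST and Bcat_exon3 minus Bcat_control. Tfrc, Slc16a1, Slc6a6, Slc7a1, Slc39a10 and Slco1c1 lie left of 0 in both knockout comparisons and right of 0 with stabilised beta-catenin.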

How the data were processed

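RNA of sorted brain endothelial cells was sequenced, and the unit of the values the authors deposited is RPKM, that is reads divided by gene length and by library size. The submitters' processing notes name edgeR and mm10. No aligner, annotation or gene length is given in the sources used here. The table held 24260 rows. Those with a name used more than once (54 rows, 23 names) were dropped, and 8 columns of no sample described here were not used.

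Genes with a mean of at least 1 RPKM over the 8 libraries were tested on log2(RPKM + 1), computed from the deposited RPKM, a scale that understates the change of low genes. Moderated two-sided tests came from limma 3.58.1 in R 4.3.3 (eBayes with trend, Benjamini-Hochberg adjustment over all genes, threshold 0.05), with 2 group means. The stroke hemisphere and the difference between hemispheres came from a fit of all 16 stroke libraries with 1 mean per group. Its genes had a mean of at least 1 RPKM over those 16. Xist and the Y-linked genes were not tested. Values were whole numbers of read bases over a whole gene length for 99.7% of 9848 filtered genes (tolerance 0.003). The most common low number of bases, 50, was taken as the read length, and division by it gave the estimated reads. Of the low numbers of bases 48.0% were multiples of 50, so many estimated reads are not whole. The estimated reads served depth and limma's voom only. The GC trend of a library was a lowess curve of its deviations from the gene means on the GC content of the longest GENCODE transcript (GRCm38), and it was subtracted. Sequences are from GENCODE transcripts and RefSeq promoters of GRCm38, the assembly that mm10 names. Scripts ran in Python 3.11.15 and were tested on simulated data.

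The 8 libraries, all 46 gene lists and the choice of named genes were fixed with earlier results of these data known. Named were the 10 genes of lowest p in each direction whose groups did not overlap with a mean of at least 5 RPKM, skipping predicted genes, then from each list members that passed or the 2 of highest mean, and fixed genes of the pathway and the barrier. This gave 115 genes, of which part is named, and other members were named after their values were seen. Some genes that this choice takes in are not reported here and stay in the counts. The alternatives tried were other scalings, pseudocounts, filters, fits of 16 libraries, a replicate block, each library left out, estimated reads and GC removal.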

Additional observations from a re-analysis of the deposited data

Results flagged for a closer look

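Single libraries stood apart from the other 3 of their group for 18 genes among those searched, by the size of the gap relative to the range of the group. The gap was set against a 95% critical value, so by its construction about 5% of groups would pass by chance. The number of groups searched is not given here, so whether the 18 exceed that share cannot be told. In cKO_NS these were Pecam1 at 248 RPKM, Hspb1 at 941 RPKM and Abcb1a at 121 RPKM in library 4, Lcn2 at 266 RPKM and Srsf2 at 1136 RPKM in library 3, Ocln at 275 RPKM and Cav2 at 516 RPKM in library 2, and H2-K1 at 319 RPKM in library 1. In Control_NS these were Adm at 73.5 RPKM, Actb at 8658 RPKM, S100a8 at 5.91 RPKM and S100a9 at 1.61 RPKM in library 1, Cd34 at 310.2 RPKM in library 2, Polr2b at 27.1 RPKM and Mir6236 at 16.8 RPKM in library 3, and B2m at 2115 RPKM, Klf2 at 138 RPKM and Aif1 at 76.7 RPKM in library 4.

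The Y-linked genes, which no comparison used, summed to 189 RPKM in cKO_NS 4, a library labelled female, against at most 0.973 RPKM in the other 7 libraries. Of the 10 genes called higher without that library Igfbp7 alone was also called with it, and the 9 others were Ctla2a, Ctla2b, Rgcc, Slc2a1, Map3k6, Acr, Cebpd, Mal and 2810029C07Rik.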

How the results depend on the processing

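Igfbp7 and Tfrc kept their direction under all 24 alternatives. Igfbp7 passed in 7 of them (log2 fold change 0.64 to 1.20, adjusted p 0.00362 to 0.309) and Tfrc in 11 (-1.64 to -1.28, adjusted p 0.00460 to 0.233, by limma). As reported, 1 higher and 1 lower gene passed. All 16 stroke libraries in 1 fit gave 22 higher and 9 lower. Median-of-ratios scaling gave 0 higher and 1 lower, with 1224 genes at an unadjusted p under 0.05. Quantile normalization (1196 such genes), no filter (1525) and eBayes without trend (1257) each gave 0 in both directions. A pseudocount of 0.1 and a minimum mean of 5 RPKM each left 1 and 1. Leaving out each library in turn gave 0 to 10 higher and 0 to 1 lower genes, with 1019 to 1337 at an unadjusted p under 0.05. The 10 came without cKO_NS 4. Tfrc was the lower gene without cKO_NS 4, and Aspa without Control_NS 2.

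Alternatives chosen after seeing the data were voom on the estimated reads, with 1 higher and 7 lower, the 16 libraries with median-of-ratios scaling (14 and 15), the 16 libraries without cKO_NS 4 (34 and 11), GC removal (0 and 0, with 1009 genes at an unadjusted p under 0.05), GC and length removal (0 and 0, with 979), the 16 libraries with GC removal (3 and 7), and GC removal without cKO_NS 4 (2 and 3). The cause of these moves was not tested. The difference between hemispheres was called for 0 genes in each of its 5 fits.

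Whether the replicate numbers pair the samples across genotypes cannot be told from these values. Pairing of the hemispheres within a genotype was not examined, and the fits of 16 libraries without a block treat all libraries as independent. Deviations of cKO_NS and Control_NS libraries of the same number correlated at 0.060, 0.105, 0.0018 and 0.0051. Those of unlike number correlated at -0.0926 to 0.101. With a replicate block 2 higher genes (Map3k6 and Mt2) and 1 lower gene (Tfrc) were called, and with the block and GC removal 0 and 0 (1028 genes at an unadjusted p under 0.05). What depth limits in genes with few reads, such as Gpr124 and Axin2, was not tested.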
